A study of Mus musculus with 16 samples.

Results

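The genes described here encode receptors for neurotransmitters: the AMPA, kainate and NMDA receptor subunits and the metabotropic receptors for glutamate, the GABA-A and GABA-B receptors, the glycine receptor, the nicotinic and muscarinic acetylcholine receptors, and serotonin and alpha-adrenergic receptors. They were chosen by symbol, from those of the ion channel subunits and G-protein-coupled receptors of these families (Gria, Grin, Grik, Grm, Gabra, Gabrb, Gabrg, Gabrd, Gabbr, Glra, Glrb, Chrna, Chrnb, Chrm, Htr and Adra, with Htr3a left out by the rule). No measured value enters the rule. The rule found 51 of the 14498 genes in the count matrix. Of these, 21 belong to glutamate receptors (4 AMPA, 5 kainate, 5 NMDA and 7 metabotropic), 12 to GABA receptors (11 GABA-A and 1 GABA-B), 2 to the glycine receptor, 7 to nicotinic and 2 to muscarinic receptors, 5 to serotonin receptors and 2 to adrenergic receptors.

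Glutamate and GABA are the main fast transmitters of the adult forebrain, where AMPA, kainate and NMDA receptors pass depolarizing current and GABA-A receptors open chloride channels. In the embryonic forebrain many of these receptors are made before synapses form. Immature neurons keep a high internal chloride level, so that GABA and glycine can depolarize them, and both ambient transmitters and their receptors have been linked to the proliferation of progenitors, to neuronal migration and to the growth of processes. Each ionotropic receptor is an assembly of several subunits, so the make-up of the subunit mRNAs bears on which assemblies a cell can form.

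Forebrain cells of wild-type mice of the CD1 strain, taken at embryonic day 15.5, were profiled singly with a droplet kit (SureCell). The 16 samples carried the same strain, genotype, tissue and age, formed 1 group, and were given as 1 pooled matrix whose cells carry no sample name, so cells could not be assigned to a sample and no test across samples was possible. The matrix holds 5777 cells and 21609944 UMIs (unique molecular identifiers, each marking 1 captured mRNA molecule), with a median of 3258 UMIs per cell and a range from 1111 to 17398. After 4 cells rich in globin RNA were left out, 5773 cells were grouped into 24 clusters without use of any receptor gene, and 22 clusters were named by fixed marker lists.

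The named classes comprised 889 radial glia-like cells, 518 intermediate progenitor-like cells, 973 migrating excitatory neuron-like cells, 1224 excitatory neuron-like cells, 76 Cajal-Retzius-like cells, 417 ganglionic eminence progenitor-like cells, 519 Sst and Lhx6 interneuron-like cells, 274 Sp8 interneuron-like cells, 247 striatal neuron-like cells and 155 basal forebrain neuron-like cells. Small classes comprised 27 choroid plexus-like, 29 meningeal fibroblast-like and 17 microglia-like cells. The meningeal class also carried every measured endothelial and mural marker at a raised level, and it is a mixture. A further 408 cells in 2 clusters, led by Nts and by Crym, stayed unnamed. The 5777 columns of the matrix held 2 consecutive runs of cells (3651 and 2122), with 4 cells between them assigned to neither. The runs were told apart by Y-linked genes, whose UMIs all lay in the first, and by 11 genes out of alphabetical order, whose UMIs all lay in the second. The labels do not say what a run is. Ganglionic eminence progenitor-like, Sp8 interneuron-like and striatal neuron-like cells came mostly from the first run (385 of 417, 235 of 274 and 232 of 247), and basal forebrain neuron-like cells came from the first run alone, so ratios are also given within each run where the runs differ. The runs also held different clusters of a class. Excitatory neuron-like clusters led by Camk4 and Hs3st4 held 361 and 210 cells of the first run and 102 and 185 of the second. The third such cluster held 21 and 345 cells, and the interneuron-like cluster led by Sst 82 and 154. Whether a difference between runs within such a class came from its clusters was not tested.

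Levels are given as CPM, the UMIs of a gene summed over the cells of a class per 1000000 UMIs of that class. A gene's ratio between classes was measured where both classes together held at least 50 UMIs, and a ratio of at least 1.5-fold was counted as higher or lower. A gene thus reached this minimum more easily through the class with more UMIs. For counts within 1 run or without a cluster, shares over all genes are not given. Such counts are not read as a result about receptor genes. Intervals are 95% and cover counting error only. Because cells of 1 pool are not replicates, no p-value is given, and levels are compared for the same gene between classes, never between genes.

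The start sites of the genes that mark the main patterns below are shown first. Of the 51 genes, 37 matched a RefSeq start-site window (GRCm38.p6), giving 45 windows of 250 bases upstream. The 6 windows printed here hold no annotated exon and belong to genes higher in excitatory neuron-like than in radial glia-like cells (Gria2, Glra2, Grik3), and to genes high in Cajal-Retzius-like cells (Grm2), in choroid plexus-like cells (Htr2c) and in Sst and Lhx6 interneuron-like cells (Gria4). Each is written 5′ to 3′ on the gene's strand, ending at the base before the start site. Capitals mark every match, on either strand, to the GC box GGGCGG, the CCAAT box CCAAT or the TATA box TATAAA, which on the opposite strand read as the letters CCGCCC, as ATTGG and as the letters TTTATA. No motif searched contains another except where stated.
Gria2 (chr3:80802836-80803085, minus strand): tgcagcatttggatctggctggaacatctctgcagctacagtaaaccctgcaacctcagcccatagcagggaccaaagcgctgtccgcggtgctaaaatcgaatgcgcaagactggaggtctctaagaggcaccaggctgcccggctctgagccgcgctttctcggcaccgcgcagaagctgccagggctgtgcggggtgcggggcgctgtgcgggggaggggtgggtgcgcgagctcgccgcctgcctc
Glra2 (chrX:165327394-165327643, minus strand): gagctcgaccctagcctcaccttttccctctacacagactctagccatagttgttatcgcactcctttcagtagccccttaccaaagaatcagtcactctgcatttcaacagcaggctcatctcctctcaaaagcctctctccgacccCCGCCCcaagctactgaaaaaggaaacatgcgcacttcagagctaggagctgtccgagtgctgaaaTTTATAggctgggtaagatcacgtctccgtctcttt
Grik3 (chr4:125490446-125490695, plus strand): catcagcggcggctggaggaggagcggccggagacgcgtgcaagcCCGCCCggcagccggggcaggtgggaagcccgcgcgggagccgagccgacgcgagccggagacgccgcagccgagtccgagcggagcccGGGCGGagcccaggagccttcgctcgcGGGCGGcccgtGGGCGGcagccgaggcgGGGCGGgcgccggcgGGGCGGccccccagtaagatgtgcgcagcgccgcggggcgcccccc
Grm2 (chr9:106656110-106656359, minus strand): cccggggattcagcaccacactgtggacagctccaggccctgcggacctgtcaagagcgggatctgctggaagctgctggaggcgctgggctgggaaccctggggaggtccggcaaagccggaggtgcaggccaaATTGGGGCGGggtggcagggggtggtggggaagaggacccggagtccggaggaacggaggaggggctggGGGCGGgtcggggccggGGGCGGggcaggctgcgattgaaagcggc
Htr2c (chrX:146962263-146962512, plus strand): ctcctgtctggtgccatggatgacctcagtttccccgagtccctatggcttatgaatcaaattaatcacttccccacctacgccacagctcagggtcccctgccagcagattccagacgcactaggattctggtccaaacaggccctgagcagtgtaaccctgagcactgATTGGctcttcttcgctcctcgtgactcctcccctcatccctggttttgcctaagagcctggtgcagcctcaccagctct
Gria4 (chr9:4796235-4796484, minus strand): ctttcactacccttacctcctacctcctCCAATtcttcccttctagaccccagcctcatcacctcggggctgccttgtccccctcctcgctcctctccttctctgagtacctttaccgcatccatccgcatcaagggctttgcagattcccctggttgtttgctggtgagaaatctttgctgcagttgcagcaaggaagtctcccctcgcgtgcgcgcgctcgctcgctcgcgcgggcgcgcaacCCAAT
The Grik3 window held 6 GC boxes, the Grm2 window 3 and the Glra2 window 1, whereas the windows of Gria2, Htr2c and Gria4 held 0. A CCAAT box was present in Gria4 (2 matches), Grm2 (1) and Htr2c (1), and a TATA box in Glra2 (1). A GC box was found in 51.1% of the 45 receptor windows, against 32.7% of all 32851 windows. The CCAAT box was in 31.1% against 33.8%, the TATA box in 15.6% against 12.4%, the E-box CAGATG, searched on both strands, in 4.44% against 14.4%, and the E-box CAGCTG in 4.44% against 13%. The cyclic AMP response element TGACGTCA was in 0 receptor windows against 1.55% of all windows, and its shorter core TGACG, searched on both strands, which lies within it, in 15.6% against 17.8%. The median GC content of the receptor windows was 62.0%, against 52.4% for all windows. The windows of Gabra3 overlap each other, as do those of Grm7, so matches in the overlap are counted more than once in these shares. By gene, a GC box was found in 22 of the 37 genes, a CCAAT box in 12 and a TATA box in 6. A match describes letters in a window and not a bound site.

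The 51 receptor genes together held 39045 UMIs, 0.181% of all UMIs, and their depth differed widely. AMPA receptor genes held 16929 UMIs, GABA-A receptor genes 6230, kainate receptor genes 5139, Gabbr1 3462, NMDA receptor genes 2551, glycine receptor genes 1861, metabotropic glutamate receptor genes 1423 and nicotinic receptor genes 1066. Adrenergic, serotonin and muscarinic receptor genes held 174, 142 and 68 UMIs. Gria2, with 13257 UMIs, was found in 68.9% of cells, and Chrna5 had the fewest, with 10 UMIs. Of the 51 genes, 19 held at least 200 UMIs and are described one by one, 15 held between 50 and 199, and 17 held fewer than 50, too few for a ratio between classes.

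**Figure D1:**
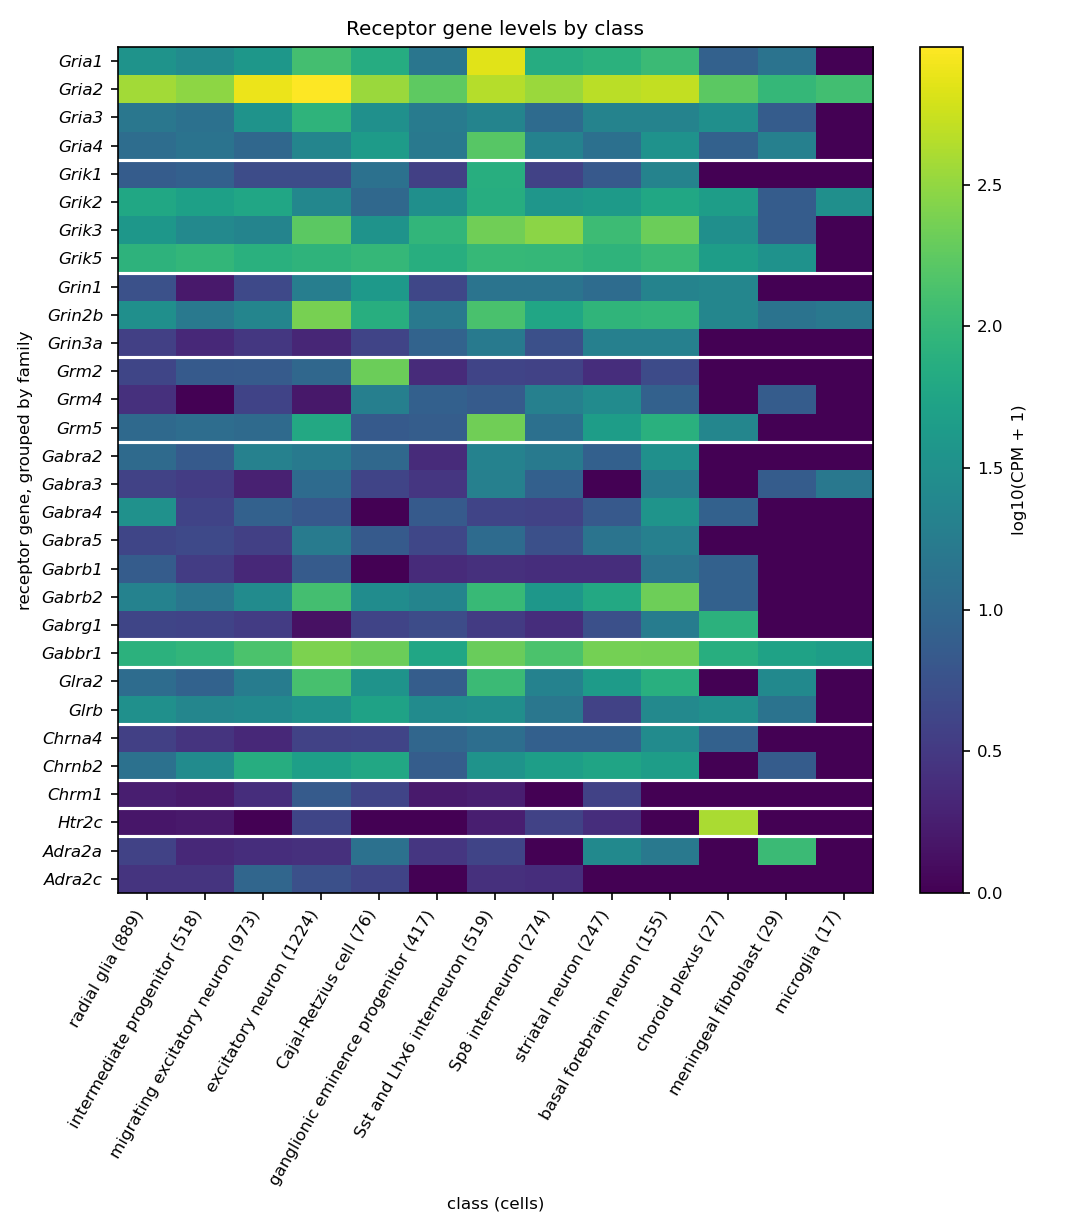
Level of 30 of the 34 receptor genes with at least 50 UMIs (rows, grouped by family between white lines) in the 13 named classes (columns, with cell numbers), as log10(CPM + 1). Read along a row: Gria2 was highest in excitatory neuron-like cells (967 CPM) and Gria1 in Sst and Lhx6 interneuron-like cells (703 CPM), while Grm2 and Htr2c stood out in Cajal-Retzius-like and choroid plexus-like cells.

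Receptor mRNA was higher in excitatory neuron-like cells than in radial glia-like cells, the progenitors of the cortical wall, for most genes that could be measured. Of 24 measured receptor genes, 19 were higher and 2 lower in the neurons, and 3 lay between. Over all 10493 genes measured in the same comparison, 21.3% were higher and 29.1% lower. The median log2 ratio was 1.95 for the receptor genes and -0.14 for all genes. The plot of neuron over progenitor ratios shows each gene with its interval.

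**Figure D2:**
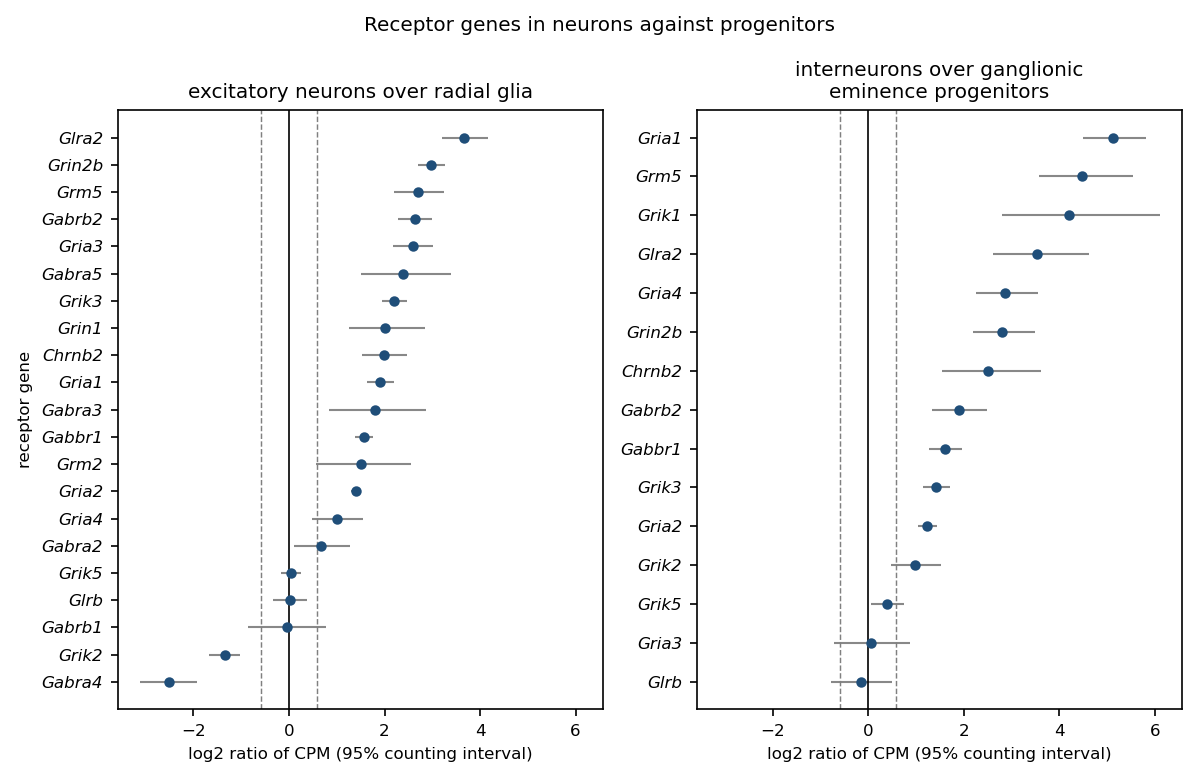
Log2 ratio of CPM for measured receptor genes, with 95% counting intervals, in excitatory neuron-like cells over radial glia-like cells (left, 21 of 24 genes) and in interneuron-like cells over ganglionic eminence progenitor-like cells (right, 15 of 17 genes). Dashed lines mark 1.5-fold; 16 of the genes shown on the left and 12 on the right lie above it, and Grik2 and Gabra4 lie below it on the left.

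All 4 AMPA receptor genes were higher in the excitatory neuron-like cells. Gria2 (ENSMUSG00000033981, chr3:80681450-80802835, minus strand, GRCm38), whose edited subunit makes AMPA receptors impermeable to calcium, had a level of 368 CPM in radial glia-like cells (interval 349 to 388) and of 967 CPM in excitatory neuron-like cells (941 to 993), a 2.63-fold difference (2.48 to 2.79). Gria3 (chrX:41400854-41678601, plus strand) was 6.0-fold higher (4.52 to 8.11), at 14.3 and 85.6 CPM. Gria1 (chr11:57011387-57330244, plus strand), the subunit best known from activity-dependent insertion at synapses, was 3.75-fold higher (3.09 to 4.56), at 33.3 and 125 CPM. The 3 intervals lie well away from no change, and that of Gria4, 2.01-fold higher (1.40 to 2.94), lies closest to it.

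NMDA and metabotropic glutamate receptor genes were higher in the neurons wherever they were measured. Grin2b (chr6:135713233-136173511, minus strand), the NMDA receptor subunit typical of embryonic and neonatal neurons, was 7.88-fold higher (6.50 to 9.64), with 29.8 CPM in radial glia-like and 235 CPM in excitatory neuron-like cells. Grin1, the obligatory NMDA receptor subunit, was 4.01-fold higher (2.38 to 7.15) on 17 and 100 UMIs. Grm5, a receptor coupled to phospholipase C, was 6.51-fold higher (4.61 to 9.45). Its fold was larger in the second run (10.7). Grm2, which inhibits adenylyl cyclase, was 2.84-fold higher (1.49 to 5.85) in all cells but 1.44-fold in the first run, below the threshold, and 5.82-fold in the second.

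Kainate receptor genes differed in direction. Grik3 (chr4:125490700-125714173, plus strand) was 4.62-fold higher in excitatory neuron-like cells (3.86 to 5.55), at 37.0 and 171 CPM, whereas Grik2 (chr10:49094833-49788766, minus strand) was 2.54-fold lower (2.04 to 3.18), at 59.4 and 23.4 CPM. In the second run alone Grik2 was 4.08-fold lower. Grik5, a subunit that needs another kainate subunit to form a channel, was at 84.7 and 87.2 CPM, a difference within counting error.

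Of 8 measured GABA-A receptor genes, 6 were higher and 1 lower in the excitatory neuron-like cells. Gabrb2 (chr11:42419757-42629028, plus strand) was 6.21-fold higher (4.89 to 7.98), at 20.1 and 125 CPM, and Gabra5, an alpha subunit of extrasynaptic receptors in the adult hippocampus, was 5.22-fold higher (2.85 to 10.5) on 12 and 92 UMIs. Gabra4 (chr5:71569749-71658308, minus strand), an alpha subunit of extrasynaptic receptors elsewhere in the adult forebrain, went the other way. Its level was 31.7 CPM in radial glia-like and 5.57 CPM in excitatory neuron-like cells, 5.68-fold lower in the neurons (3.80 to 8.73). Within radial glia-like cells Gabra4 was 15.8 CPM in the first run and 59.4 CPM in the second, and its level ran from 11.9 CPM in the cluster led by Plk1 to 46.7 CPM in the cluster led by Aldoc and Hopx. An exon of Gabra4 shares 28 bases with an exon of Gabrb1 on the opposite strand. Gabbr1, a subunit of the metabotropic GABA-B receptor, was 2.97-fold higher (2.62 to 3.36), at 82.9 and 246 CPM.

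The largest ratio of the comparison belonged to Glra2 (chrX:165129017-165327393, minus strand), the embryonic alpha subunit of the glycine receptor. Its level was 10.3 CPM in radial glia-like and 130 CPM in excitatory neuron-like cells, 12.6-fold higher (9.16 to 17.9), and was higher in both runs. Glrb, the beta subunit that anchors glycine receptors at synapses, was at 30.9 and 31.3 CPM, so the beta subunit mRNA did not differ with the alpha subunit mRNA. Chrnb2 (chr3:89746195-89764632, minus strand), the common beta subunit of neuronal nicotinic receptors, was 3.96-fold higher (2.88 to 5.57), at 11.9 and 47.1 CPM. An exon of Chrnb2 overlaps an exon of Adar on the opposite strand by 1014 bases. The strand setting of the counting is not given in the sources used here, so reads of these genes cannot be told apart in the overlap; Adar itself stood at 50.2 and 72.3 CPM. No muscarinic, serotonin or adrenergic receptor gene was measured in this comparison.

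Single clusters carried part of these values, and each cluster of a class was left out in turn, an alternative added after the values were seen. Of the 4 radial glia-like clusters, the one led by Rgcc and Sall3, with Olig1 among its leading genes (127 cells, median 6725 UMIs), held 32 of the class's 45 Chrnb2 UMIs, 69 of its 113 Grin2b UMIs and 71 of its 140 Grik3 UMIs. Without this cluster the class stood at 4.50 CPM for Chrnb2, 15.2 CPM for Grin2b and 23.9 CPM for Grik3. The ratios to excitatory neuron-like cells were then 10.5-fold for Chrnb2, 20.9-fold for Glra2, 15.4-fold for Grin2b, 7.14-fold for Grik3 and 6.49-fold for Grm2, all in the same direction and larger than with it. In another alternative, the 5% of cells with the highest doublet scores (likeness to 2 joined cells) were left out and the rest clustered anew. Radial glia-like cells then numbered 724 in place of 889, and excitatory neuron-like cells 1225 in place of 1224. How many cells of the Rgcc cluster this took out was not tested, so doublets may add to its levels. Without the cluster led by Aldoc, Chrnb2 was 2.56-fold higher and Gabra4 3.56-fold lower in the neurons. Among the excitatory neuron-like clusters, the one led by Hs3st4 (395 cells) was high in several genes, and without it Grik3 was 2.58-fold, Gria3 3.73-fold, Grm5 4.30-fold and Gabra5 1.99-fold higher, the last on 12 and 25 UMIs. Without the third excitatory neuron-like cluster (366 cells) Grm2 was 1.18-fold higher, on 12 and 15 UMIs.

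Genes whose products bind or serve these receptors, taken from lists chosen by function, were compared in the same way, and the lists differed. Of 10 measured auxiliary subunits of glutamate receptors, 9 were higher in excitatory neuron-like cells and 0 lower, led by Olfm2 (11-fold, 5.41 to 26.0, and 6.54-fold in the second run) and Gsg1l (7.04-fold, 4.49 to 11.6, and 4.32-fold in the second run). Of 17 measured scaffold genes, 10 were higher, with Shank1 (6.42-fold) and Dlg2 (4.65-fold) the largest, and Homer2 was lower (1.77-fold). Of 12 measured GABA and glycine receptor partners, 7 were higher, with Kctd12, an auxiliary subunit of GABA-B receptors, at 35.9 and 386 CPM (10.8-fold, 9.05 to 12.9), and Kctd8 3.56-fold higher overall but 1.15-fold lower in the second run. Chloride transport and uptake genes split. The glutamate transporter gene Slc1a1 was 7.60-fold higher, while the GABA transporter gene Slc6a11 was 5.21-fold lower (8.52-fold in the second run) and the chloride importer gene Slc12a2 2.28-fold lower. In all, 3 of 9 measured genes of this list were higher and 4 lower. Ly6h, which encodes a protein that binds nicotinic receptors, was 5.28-fold higher, the only 1 of 5 measured acetylcholine and monoamine partners to pass the threshold, and Adarb1, which encodes the editing enzyme of the Gria2 transcript, was 2.11-fold higher (1.53 to 2.94).

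The difference between radial glia-like and excitatory neuron-like cells did not run evenly through the classes that lie between them. These stepwise comparisons were added after the clusters were seen. From radial glia-like to intermediate progenitor-like cells, the basal progenitors of the cortex, 1 of 17 measured receptor genes was higher and 4 were lower (all genes: 9.23% higher and 18.3% lower). Chrnb2 was the gene that was higher (2.26-fold, 1.46 to 3.5, at 11.9 and 26.9 CPM), 5.97-fold higher (3.17 to 12.1) without the Rgcc cluster of radial glia-like cells and 1.46-fold, below the threshold, without the Aldoc cluster. Gabra4 was 10.6-fold lower (4.42 to 33.3), on 120 and 5 UMIs, 6.99-fold lower in the first run and 6.63-fold lower without the Aldoc cluster. Grin2b was 2.0-fold lower (3.36-fold in the first run and 1.34-fold in the second run) and Grik3 1.51-fold lower (1.11-fold in the second run), so both passed the threshold in the first run and not in the second. Without the Rgcc cluster neither passed it, with Grin2b at 15.2 and 14.9 CPM and Grik3 at 23.9 and 24.5 CPM. In that setting 1 of 14 measured genes was higher and 1 lower (all genes: not given).

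From intermediate progenitor-like to migrating excitatory neuron-like cells, 9 of 17 measured receptor genes were higher and 0 lower (all genes: 12.3% and 16.1%). All 4 measured GABA-A receptor genes were among them. Gabra2, the main alpha subunit of the embryonic forebrain, was 3.30-fold higher (1.68 to 7.19). Gria3 was 2.80-fold higher, Gria2 2.67-fold higher (2.42 to 2.94), at 298 and 795 CPM, and Chrnb2 2.63-fold higher (1.91 to 3.70), at 26.9 and 70.7 CPM. Gabrb2 was 1.91-fold higher in all cells but 1.14-fold in the first run and 3.25-fold in the second. Glra2 was 2.15-fold higher in all cells, 5.31-fold in the first run and 1.19-fold in the second, and Gabbr1 was 1.53-fold higher in all cells but 1.40-fold in the first. The intermediate progenitor-like cluster led by Neurog2 held 444 of the 518 cells. In the other 74 cells Gabra2 held 0 UMIs and Glra2 held 1, and Gria3 was 1.67-fold higher in the migrating cells, while without those 74 cells Gabbr1 was 1.43-fold higher.

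From migrating to excitatory neuron-like cells, 15 of 24 measured receptor genes were higher and 3 lower (all genes: 15.4% and 13%). Grin2b was 10.6-fold higher (8.42 to 13.6), at 22.1 and 235 CPM, Grik3 7.94-fold (6.24 to 10.2), Glra2 7.79-fold (5.93 to 10.4), Grm5 6.28-fold (4.39 to 9.27), Grin1 5.02-fold (2.75 to 10) and Gabrb2 4.74-fold (3.80 to 5.99). Gabra3 was 11.2-fold higher (3.66 to 56.2) on 3 and 56 UMIs, with 0 migrating UMIs in the first run and 6.48-fold in the second. Gabra5 was 6.16-fold higher (3.11 to 13.9) on 9 and 92 UMIs, and rested on 1 migrating UMI in the second run. The 3 genes lower in the excitatory neuron-like cells were Grik2 (2.44-fold, 1.94 to 3.07), Adra2c, an alpha-2 adrenergic receptor gene (2.01-fold, 1.13 to 3.60, on 29 and 24 UMIs), and Chrnb2 (1.5-fold, 1.25 to 1.80, and 1.47-fold in the first run). Gria2 differed by 1.22-fold at this step. Without the migrating cluster led by Unc5d (571 of 973 cells) Adra2c (1.38-fold, on 8 and 24 UMIs) and Chrnb2 (1.24-fold) were no longer past the threshold and Gria2 was, at 1.54-fold higher. Chrnb2 was also below it without the Hs3st4 cluster (1.45-fold). Without the Hs3st4 cluster Grik3 was 4.44-fold, Grm5 4.15-fold, Gabra3 6.48-fold and Gabra5 2.35-fold higher, the last 2 on 23 and 25 excitatory UMIs. The genes thus differed in the class where their level first exceeded that of radial glia-like cells by 1.5-fold. Chrnb2 did so in the intermediate progenitor-like cells, though not without the Aldoc cluster of radial glia-like cells, and Gria2 and Gria3 did so in the migrating cells. Grin2b, Grik3 and Grm5 were at 22.1, 21.5 and 9.85 CPM in migrating cells, against 29.8, 37.0 and 9.50 CPM in radial glia-like cells (15.2 and 23.9 CPM for Grin2b and Grik3 without the Rgcc cluster), and did so in the excitatory neuron-like cells. All cells were of 1 age, and the migrating and excitatory classes may hold different types of neuron. Stage and neuron type cannot be told apart here, so these classes give no order of onset in time.

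**Figure D3:**
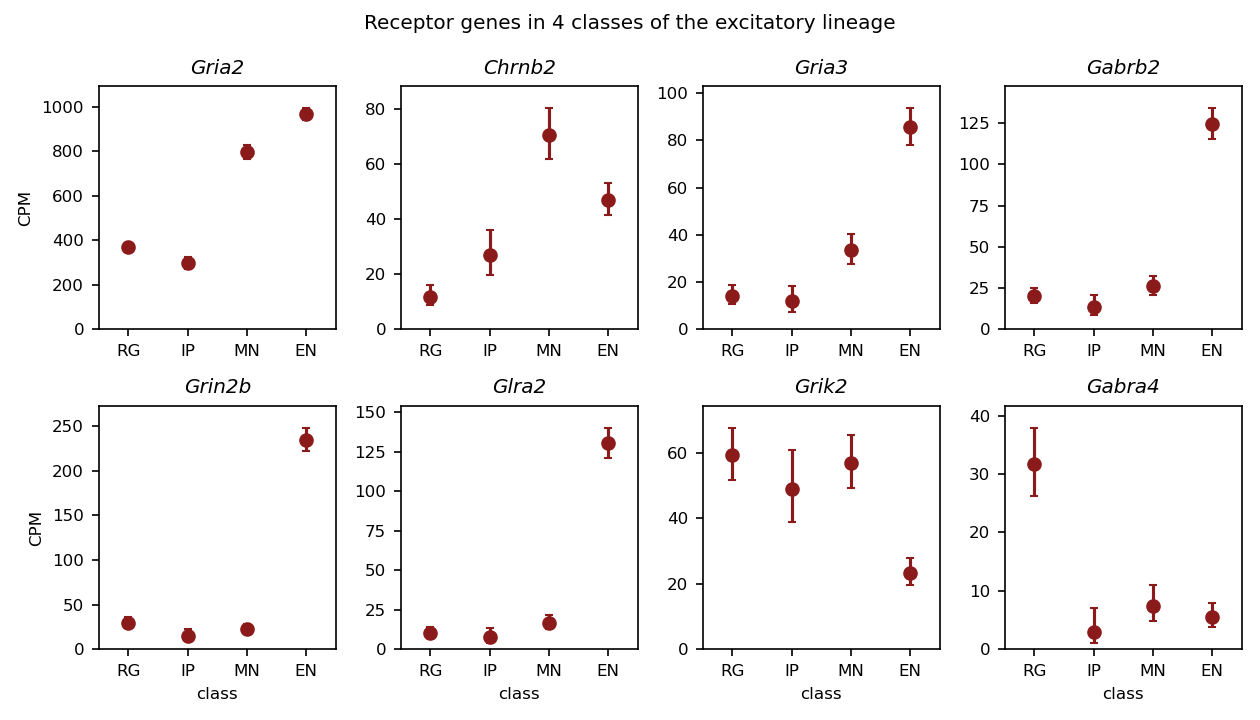
CPM of 8 receptor genes in radial glia-like (RG), intermediate progenitor-like (IP), migrating excitatory neuron-like (MN) and excitatory neuron-like (EN) cells, with 95% counting intervals; each panel has its own axis from 0. Gria2, Chrnb2 and Gria3 are above the RG level in MN, Grin2b and Glra2 are high only in EN among these 4 classes, Grik2 is lower in EN, and Gabra4 is high only in RG.

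Among excitatory neuron-like cells, receptor levels differed between the cluster led by Hs3st4 and marked by deep layer genes (395 cells, 210 of them from the first run) and the cluster led by Camk4 and Ldb2 (463 cells, 361 from the first run). This comparison was added after the clusters were seen. Of 20 measured receptor genes, 9 were higher and 1 lower in the Hs3st4 cluster (all genes: 8.63% and 8.50%). Within the first run 10 of 18 were higher and 0 lower, and within the second 4 of 14 were higher and 1 lower (all genes: not given). Grik3 stood at 129 CPM in the Camk4 cluster and 357 CPM in the Hs3st4 cluster, 2.78-fold higher (2.41 to 3.20). Gabrb2 was 2.97-fold higher (2.47 to 3.59), at 72.2 and 215 CPM, Grm5 2.63-fold higher (2.06 to 3.37), at 43.3 and 114 CPM, and Gria3 2.48-fold higher (2.03 to 3.03), at 66.8 and 166 CPM. These 4 genes passed 1.5-fold in each run. Gabra5 was 5.64-fold higher (3.31 to 10.1), at 7.43 and 41.9 CPM, but 13.4-fold in the first run and 1.32-fold in the second. Grin2b (1.70-fold, at 188 and 318 CPM) and Glrb (1.81-fold) likewise passed the threshold in the first run and not in the second, at 1.23-fold and 1.24-fold. Gabra2 was the gene that was lower in the Hs3st4 cluster, 3.46-fold (1.61 to 8.54) on 42 and 8 UMIs, with 1.95-fold in the first run and 10.9-fold in the second, where the Hs3st4 cluster held 2 UMIs. Gria2, at 731 and 958 CPM, differed by 1.31-fold (1.22 to 1.40) and Glra2, at 151 and 126 CPM, by 1.19-fold. Gria1 was 1.40-fold higher over all cells, 1.91-fold higher in the first run and 1.32-fold lower in the second. Of the partner genes, Kctd12 was 2.47-fold higher in the Hs3st4 cluster (2.25 to 2.71), at 302 and 745 CPM.

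In the ventral lineage, interneuron-like cells (both interneuron classes together, 793 cells) were compared with ganglionic eminence progenitor-like cells, the ventral progenitors that give rise to interneurons. Of 17 measured receptor genes, 14 were higher and 0 lower in interneuron-like cells (all genes: 20% and 23.5%), with a median log2 ratio of 1.89 against -0.05 for all genes. Gria1 was 34.6-fold higher (22.5 to 56.2), with 21 UMIs in the progenitors and 950 in the interneurons, and the ratio was 20.2 in the first run and rested on 1 progenitor UMI in the second. Grm5 was 22.1-fold higher (11.8 to 46.5), on 10 and 288 UMIs, and 12.8-fold in the first run. Grik1, a kainate receptor subunit gene, was 18.4-fold higher (6.95 to 68.8), on 4 and 96 UMIs, and 6.39-fold in the second run.

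Glra2 was 11.5-fold higher in the interneuron-like cells (6.08 to 24.4), Gria4 7.29-fold (4.74 to 11.7), Grin2b 6.99-fold (4.54 to 11.3) and Chrnb2 5.67-fold (2.91 to 12.3). The GABA-A receptor gene Gabrb2 was 3.71-fold higher (2.52 to 5.61), and Gabbr1 was 3.04-fold higher (2.40 to 3.88). Grik3 was at 90.6 CPM in the progenitors and 243 CPM in interneuron-like cells, 2.68-fold higher (2.21 to 3.27). The 2 progenitor clusters differed in it, with 38.1 CPM in the one led by Olig2 (226 cells) and 152 CPM in the one led by Dlx2 (191 cells). Grik3 was therefore 6.39-fold higher in interneuron-like cells without the Dlx2 cluster and 1.60-fold higher without the Olig2 cluster. Gria2, at 176 and 413 CPM, and Grik2, at 29.8 and 58.7 CPM, were 2.35-fold and 1.97-fold higher in all cells but each 1.30-fold in the second run, which held 31 of the progenitors. Gria3, Glrb and Grik5 did not pass the threshold, although without the Dlx2 cluster Gria3 was 1.64-fold lower, with an interval that holds 1 (0.923 to 2.87). Without the Olig2 cluster Grm5 was 50.9-fold and Gabrb2 6.09-fold higher, on 2 and 9 progenitor UMIs, and Grik1 held 0 progenitor UMIs; without the Dlx2 cluster Grik1 was 9.90-fold higher. Partner genes with the largest ratios were Cacng3, an AMPA receptor auxiliary subunit (46.7-fold, 12.7 to 390, on 2 and 122 UMIs, and 26.4-fold in the first run), Neto1, a kainate and NMDA receptor auxiliary subunit (21.5-fold, 11.5 to 45.4, and 11-fold in the first run), and the scaffold gene Dlgap1 (13.4-fold, 9.29 to 20.1, and 8.93-fold in the first run). Slc12a2 was 5.10-fold lower (4.23 to 6.18), and 17.2-fold in the second run.

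The interneuron-like cluster led by Sst (237 of 793 cells) carried much of the receptor level. Without it 12 of 15 measured receptor genes were higher and 0 lower than in the progenitors (all genes: not given). Gria1 was then 12.8-fold, Grm5 5.73-fold, Glra2 5.51-fold, Gria4 4.84-fold, Grin2b 3.96-fold and Gabrb2 2.39-fold higher. Grik2, at 1.47-fold, no longer passed the threshold, and Grik1 held 4 and 8 UMIs, too few to measure.

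The pooled interneuron values joined 2 unlike classes. Sst and Lhx6 interneuron-like cells resemble interneurons of the medial ganglionic eminence, and Sp8 interneuron-like cells those of the lateral and caudal eminences. Of 15 measured receptor genes, 0 were higher and 9 were lower in the Sp8 class than in the Sst and Lhx6 class (all genes: 9.33% and 11.4%), and the median log2 ratio was -1.20 against 0.01 for all genes. Gria1 was at 703 CPM (658 to 751) in the Sst and Lhx6 class and 69.3 CPM in the Sp8 class, 10.2-fold lower in the latter (7.59 to 13.9), and 6.10-fold lower in the first run and 33.5-fold in the second. Grm5 was 18.9-fold lower (9.47 to 44.2), at 218 and 11.5 CPM, and 11.4-fold in the first run. Grik1 was 25.4-fold lower (6.84 to 213), on 94 and 2 UMIs, and 13.4-fold in the first run. Gria4 (chr9:4417896-4796234, minus strand) was 7.91-fold lower (4.61 to 14.7), at 160 and 20.2 CPM, and 3.44-fold in the second run.

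Smaller differences in the same direction were seen for Glra2 (5.25-fold, 3.02 to 9.86), Gabrb2 (2.68-fold), Grin2b (2.30-fold) and Grik2 (1.97-fold). Gabrb2 was 1.78-fold lower in the first run, still past the threshold. Grik3 was at 216 CPM in the Sst and Lhx6 class and at 293 CPM (254 to 336) in the Sp8 class, the highest Grik3 level of the 13 named classes, but the ratio did not pass 1.5-fold. Chrnb2 (32.8 and 46.2 CPM) and Gabbr1 (199 and 136 CPM) did not pass it either, although Chrnb2 was 3.70-fold higher in the second run, on 13 and 9 UMIs. Without the Sst cluster 5 of 13 measured genes were lower in the Sp8 class (all genes: not given). Gria1 was then 4.22-fold, Grm5 5.70-fold, Glra2 2.65-fold, Grik1 3.18-fold and Gabrb2 1.71-fold lower, Glra2 on 35 and 14 and Grik1 on 6 and 2 UMIs, while Grin2b (1.09-fold) and Grik2 (1.44-fold) no longer passed the threshold. With the Sst cluster as the only cluster of its class, 12 of 15 were lower (all genes: not given). Among them were Grik1 (48.5-fold), Grm5 (32.6-fold), Gria1 (16.3-fold), Glra2 (7.95-fold), Grin2b (3.55-fold) and Gabbr1 (1.82-fold). Neto1 was 24.8-fold lower in the Sp8 class (11.2 to 68.1, and 14.3-fold in the first run), Dlgap1 14.4-fold lower (9.14 to 24.1, and 8.92-fold in the second run) and Kctd12 6.33-fold lower (4.05 to 10.4, and 3.90-fold in the second run). Cacng3 held 122 UMIs in the Sst and Lhx6 class and 0 in the Sp8 class, which is at least 22.0-fold lower against a floor of 3 counts over the class.

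The Sst and Lhx6 class itself held 2 clusters, led by Dlx1as, Maf, Lhx6 and Nkx2-1 (282 cells, 240 from the first run) and by Sst, Nxph2 and Neto1 (237 cells, 154 from the second run). In a comparison added after the clusters were seen, 11 of 14 measured receptor genes were higher and 0 lower in the Sst cluster (all genes: 11.9% and 12.2%). Within the first run 8 of 11 were higher and 0 lower, and within the second 5 of 12 were higher and 1 lower (all genes: not given). Grik1 was 15.2-fold higher (6.73 to 42.7), at 9.18 and 140 CPM, Grm5 5.73-fold (4.12 to 8.12), at 65.8 and 377 CPM, and Gria1 3.87-fold (3.29 to 4.56), at 292 and 1131 CPM. These were higher in the Sst cluster in both runs, with 3.75-fold for Grm5 and 2.11-fold for Gria1 in the second run, where Grik1 held 0 UMIs in the Nkx2-1 cluster and 59 in the Sst cluster. Gria1, Grik1 and Grm5 were also among the 20 genes that led the Sst cluster, although none of them was used to draw it. Grin2b was 3.27-fold higher (1.70-fold in the second run) and Glra2 3.0-fold (1.28-fold in the second run).

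For other genes the direction depended on the run. Gabrb2 was 2.15-fold higher in the Sst cluster over all cells, 2.83-fold higher in the first run and 1.38-fold lower in the second. Gabbr1 was 1.61-fold higher over all cells, 2.33-fold higher in the first run and 1.49-fold lower in the second. Grik2 (1.74-fold over all cells, and 1.1-fold lower in the second run) and Gria4 (1.47-fold, and 1.65-fold lower) followed the same course. Gria2 was 1.63-fold higher over all cells, 1.40-fold in the first run and 1.02-fold in the second. The difference between the clusters held in each run for Gria1, Grik1, Grm5 and Grin2b, and Neto1 was 9.95-fold higher in the Sst cluster (6.63 to 15.5).

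**Figure D4:**
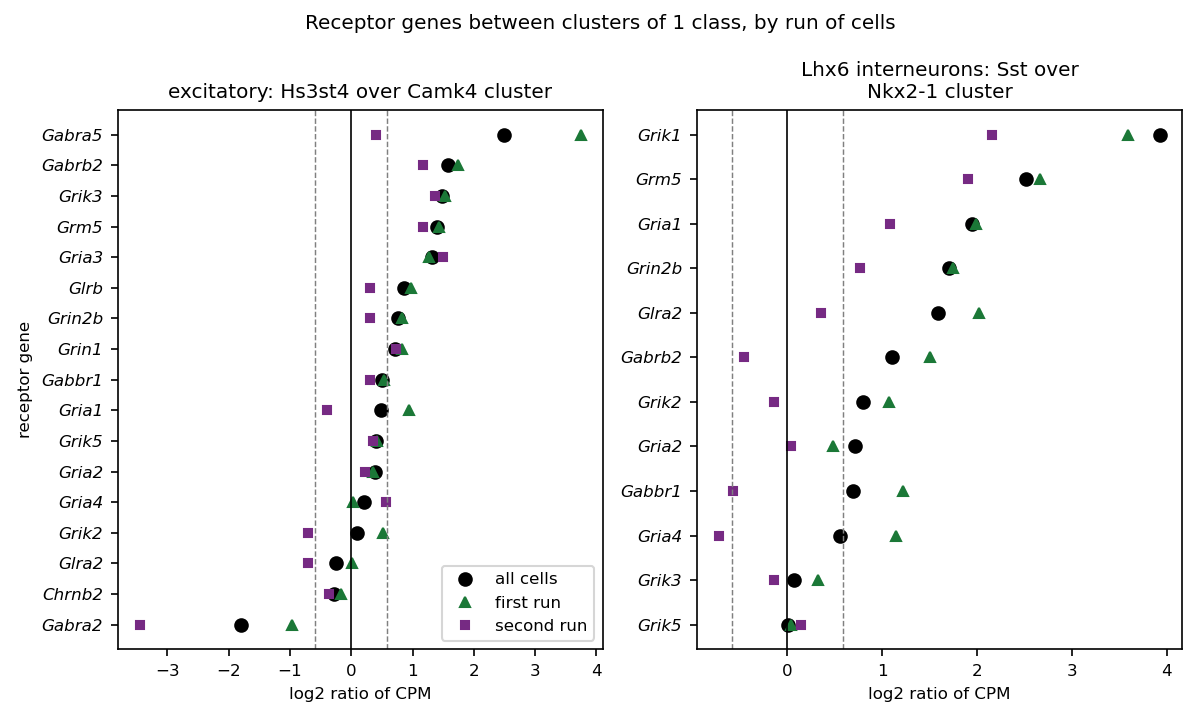
Log2 ratio of CPM between clusters of the same class for measured receptor genes, over all cells (circles) and within the first (triangles) and second (squares) run; dashed lines mark 1.5-fold, and a cluster with 0 UMIs in a run enters with 3 counts. Grik3, Gria3, Grm5 and Gabrb2 on the left, and Grik1, Grm5 and Gria1 on the right, lie above the line in both runs, while Gabrb2 and Gabbr1 on the right change side between runs.

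The make-up of AMPA receptor mRNA set the Sst and Lhx6 class apart. Shares of UMIs between genes depend on how well each transcript is captured, so only the same gene's share is compared across classes. Gria1 made up 52.7% of the AMPA receptor UMIs in Sst and Lhx6 interneuron-like cells, against 15.7% in Sp8 interneuron-like, 13.8% in striatal neuron-like, 10.4% in excitatory neuron-like and 4.2% in migrating excitatory neuron-like cells. Gria2 made up 33.8% in the Sst and Lhx6 class, and between 70.8% (Cajal-Retzius-like) and 91.0% (migrating excitatory neuron-like) in the other classes with at least 100 AMPA receptor UMIs. Gria4 made up 12% in the Sst and Lhx6 class and 1.8% in excitatory neuron-like cells. Within the class, the Gria1 share was 37.2% in the Nkx2-1 cluster and 59.3% in the Sst cluster, and the Gria2 share 43.8% and 29.5%. The lower Gria2 share came with a Gria2 level of 452 CPM, close to that of striatal neuron-like cells (471 CPM), and a Gria1 level above every other named class.

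**Figure D5:**
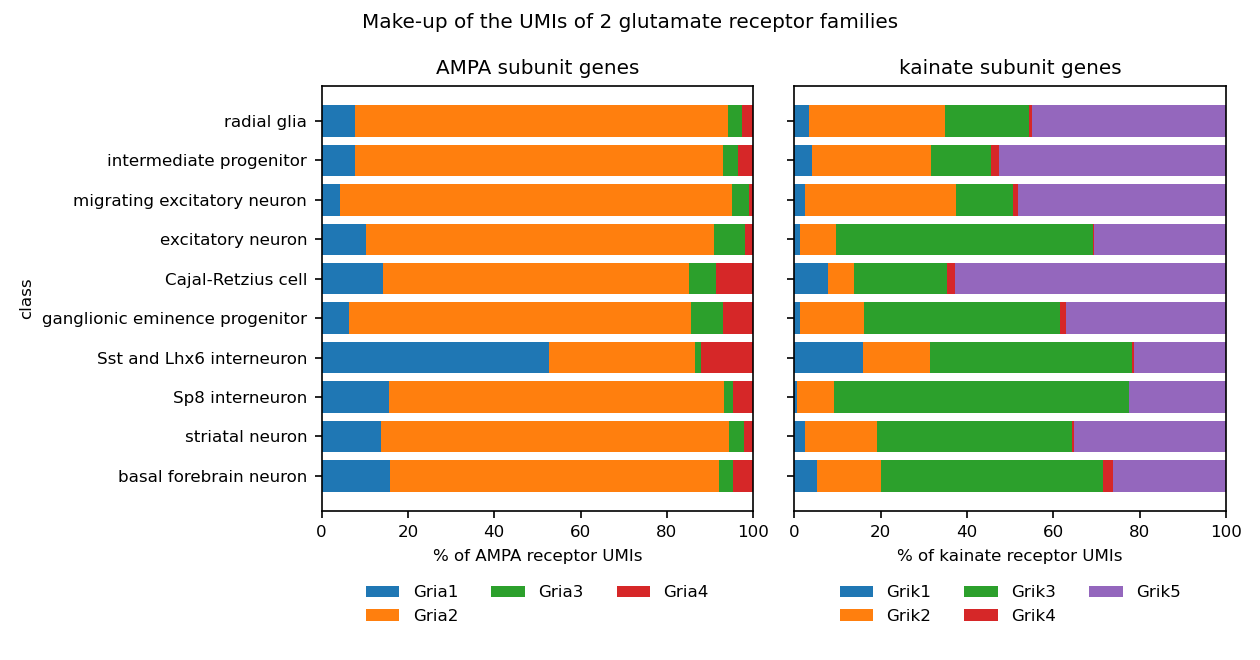
Share of each subunit gene in the UMIs of the AMPA (left) and kainate (right) receptor families, as percent of the family's UMIs, in the 10 classes with at least 100 AMPA receptor UMIs. Gria1 makes up 52.7% in Sst and Lhx6 interneuron-like cells and at most 15.9% in the other classes; the Grik3 share runs from 13.2% in migrating excitatory neuron-like to 68.4% in Sp8 interneuron-like cells.

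Kainate receptor mRNA also differed in make-up between classes. Grik5 varied little, between 74.1 and 104 CPM in the 10 larger named classes. Grik5 and Grik2 made up 44.9% and 31.5% of kainate receptor UMIs in radial glia-like cells, and 48.2% and 35.1% in migrating excitatory neuron-like cells. In excitatory neuron-like cells Grik3 made up 59.6%, Grik5 30.5% and Grik2 8.2%. Among excitatory clusters the Grik3 share was 72.5% in the Hs3st4 cluster and 55.2% in the Camk4 cluster. The Grik3 share was 45.4% in ganglionic eminence progenitor-like cells and 68.4% in Sp8 interneuron-like cells. Grik1 made up 15.9% in the Sst and Lhx6 class, 25.3% in its Sst cluster, and at most 7.8% in the other 9 classes with at least 100 AMPA receptor UMIs.

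The GABA-A alpha subunit mRNAs differed between classes as well. Gabra4 made up 66.3% of alpha subunit UMIs in radial glia-like cells and 10.1% in excitatory neuron-like cells. Gabra2 made up 60% in migrating excitatory neuron-like cells and 28.4% in excitatory neuron-like cells, where Gabra5 made up 30.1%. The Gabra5 share was 54.0% in the Hs3st4 cluster and 17.3% in the Camk4 cluster.

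Between excitatory neuron-like and interneuron-like cells, the 2 main neuronal kinds of the cortex, receptor genes differed in both directions. Of 23 measured genes, 5 were higher and 8 lower in interneuron-like cells (all genes: 12.7% and 14.6%). The counts were 4 higher and 10 lower within the first run and 8 higher and 3 lower within the second (all genes: not given). The runs also held different clusters of both classes, and the counts by run are not read as a result about receptor genes. Higher in interneuron-like cells were Grik1 (12.3-fold, 7.67 to 20.5), Gria4 (5.10-fold, 4.06 to 6.42), Gria1 (3.86-fold, 3.5 to 4.26), Grik2 (2.51-fold, 1.94 to 3.25) and Grm5 (2.36-fold, 2.01 to 2.77). In the first run Grik1 was 4.96-fold and Gria1 2.40-fold higher, and Grm5, at 1.49-fold, was just below the threshold. In the second run the ratios were 40.0-fold for Grik1, 7.26-fold for Gria1, 7.80-fold for Gria4, 3.79-fold for Grik2 and 4.38-fold for Grm5. The Sst cluster again carried these values. Without it 2 of 22 measured genes were higher and 13 lower (all genes: not given). Grm5 was then 1.63-fold lower in interneuron-like cells (1.21 to 2.24), and Gria1, at 1.43-fold higher, did not pass the threshold. Gria4 was 3.38-fold higher and Grik1 held 22 and 8 UMIs. Without the Hs3st4 cluster of excitatory neuron-like cells Grik3 was 2.55-fold higher in interneuron-like cells, Grm5 3.57-fold and Grik1 21.4-fold. Without the Sp8 class Grik1 was 18.5-fold higher.

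Among the genes lower in interneuron-like cells were Gria3 (4.97-fold, 3.51 to 7.26, and 3.28-fold in the second run), Grm2 (2.96-fold, 1.27 to 8.44, on 50 and 6 UMIs), Grin2b (2.21-fold, 1.91 to 2.57, and 1.47-fold in the second run) and Gabra5 (2.04-fold, 1.19 to 3.72). Gria2 was 2.34-fold lower, at 967 and 413 CPM. Glra2 and Gabrb2 were 1.71-fold and 1.59-fold lower over all cells but 1.17-fold and 1.07-fold higher in the second run, and Glra2 was 2.79-fold lower in the first. Their direction thus differed between runs, which also held different clusters of both classes. Without the Sst cluster Glra2 was 3.58-fold, Grin2b 3.91-fold and Gabrb2 2.47-fold lower, whereas without the Sp8 class Glra2 (1.23-fold) and Gabrb2 (1.24-fold) did not pass the threshold, nor did they without the Nkx2-1 cluster, and Gabrb2 (1.12-fold) did not without the Hs3st4 cluster. Without the Hs3st4 cluster 5 of 21 measured genes were lower (all genes: not given), Gria3 3.09-fold, and Gabra5, on 25 and 16 UMIs, was 1.28-fold higher. Without the third excitatory neuron-like cluster Grm2 was 1.23-fold lower, on 15 and 6 UMIs. Auxiliary subunit genes divided sharply. Cacng3 was 43.0-fold higher (21.1 to 102) and Neto1 36.0-fold higher (23.3 to 58.3) in interneuron-like cells, with 15.3-fold and 93.8-fold for Neto1 in the first and second run. Gsg1l was 19.3-fold lower (7.41 to 71.3), 41.0-fold and 5.48-fold by run, and Cnih3 6.19-fold lower (4.20 to 9.50), 10-fold and 3.39-fold by run. In all, 3 of 12 measured auxiliary subunit genes were higher and 8 lower. Abat, the GABA transaminase gene, was 6.87-fold higher, and 6.33-fold and 3.16-fold by run.

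Striatal neuron-like cells, the other GABAergic class of the ventral forebrain, had lower levels of several genes that were high in the Sst and Lhx6 class. Of 15 measured receptor genes, 0 were higher and 6 lower than in interneuron-like cells (all genes: 8.78% and 11.5%). Gria4 was 9.45-fold lower (4.71 to 22.2), Grik1 8.29-fold (3.13 to 31.0), Gria1 5.96-fold (4.54 to 7.98), Grm5 3.21-fold (2.21 to 4.81), Grik3 2.18-fold (1.71 to 2.82) and Glra2 1.79-fold (1.19 to 2.76). In the first run Gria1 was 3.79-fold, Grik1 4.33-fold and Grm5 2.07-fold lower, and Glra2, at 1.20-fold, did not pass the threshold. Without the Sst cluster of the interneuron-like cells 3 of 14 measured genes were higher and 3 lower in striatal neuron-like cells (all genes: not given). Glra2 and Grm5 were then 1.17-fold and 1.20-fold higher and Grik1 held 8 and 4 UMIs, so these 3 differences rested on the Sst cluster, while Gria4 was 6.27-fold and Gria1 2.20-fold lower. Without the Sp8 class Grik1 was 12.5-fold lower. The second run held 15 striatal neuron-like cells, with 11 Grik3 UMIs, and there Grik3 was 1.62-fold higher and Gria4, Grik1 and Glra2 held 0 UMIs. Gabbr1 (227 CPM) was 1.29-fold higher than in interneuron-like cells, and 1.58-fold higher without the Sst cluster. Glrb, at 2.9 CPM on 2 UMIs in striatal neuron-like cells, was lower there than in the other neuronal classes, which ran from 14.4 to 51.7 CPM.

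Cajal-Retzius-like cells, early-born neurons of the cortical surface that secrete reelin, carried a profile unlike that of the other excitatory neuron-like cells. Of 22 measured receptor genes, 5 were higher and 13 lower (all genes: 20.8% and 17.3%). Cajal-Retzius-like cells held 328732 UMIs and excitatory neuron-like cells 5563082, so a gene reached the UMI minimum more easily through the latter. With a minimum of 10 UMIs, 13 receptor genes were higher. The balance of higher and lower genes thus depends on the minimum and is not read as a result. The difference in profile rests on the single genes named here. Grm2 (chr9:106643095-106656082, minus strand) was 23.0-fold higher (15.7 to 33.9), at 207 CPM (161 to 262) against 8.99 CPM, 37.3-fold in the first run, and 55.5-fold without the third excitatory neuron-like cluster. It was found in 30 of 76 cells, at 200 CPM in the first run and 232 CPM in the second, and Cajal-Retzius-like cells made up 68 of its 184 UMIs. Grm2 held place 10 among the genes that led the cluster without having been used to draw it. Grin1 was 2.20-fold higher (1.13 to 3.94) and Gria4 1.96-fold higher (1.04 to 3.41), on 13 and 14 UMIs in the Cajal-Retzius-like cells.

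Among the genes lower in Cajal-Retzius-like cells were Grm5 (10.2-fold, 2.79 to 84.3, on 2 UMIs), Grik3 (5.10-fold, 2.84 to 10.2), Gabrb2 (4.55-fold, 2.38 to 9.99), Glra2 (3.89-fold, 2.16 to 7.83), Grin2b (3.22-fold, 2.15 to 5.04), Gria3 (2.81-fold, 1.52 to 5.90) and Gria2 (2.79-fold, 2.32 to 3.39). The second run held 18 Cajal-Retzius-like cells and at most 3 UMIs for each of Grik3, Grin2b, Gria3, Gabrb2, Glra2 and Grm5, so its ratios for these genes carry little weight. Without the Hs3st4 cluster of excitatory neuron-like cells Grm5 was 6.72-fold, Grik3 2.85-fold and Gria3 1.75-fold lower, the last with an interval that holds 1 (0.933 to 3.70). Among partner genes the scaffold gene Homer2 was 11.3-fold higher (8.86 to 14.4) and Kctd12 25.4-fold lower (10.9 to 78.3), 46.6-fold and 9.53-fold by run on 2 and 3 UMIs.

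Htr2c was found mainly in a small class outside the cortical lineages, and some of the UMIs of Gabrg1, Chrnb1 and Adra2a lay in such classes. Htr2c (chrX:146962513-147197277, plus strand), the serotonin receptor long known from the choroid plexus, held 55 of its 82 UMIs in the 27 choroid plexus-like cells, at 407 CPM (307 to 530). The UMIs lay in 10 cells, 15 of them in a single cell, and the level was 499 CPM in the first run and 69.4 CPM, on 2 UMIs, in the second. In the same class Gabrg1 held 11 UMIs in 3 cells, all from the first run, and Chrnb1 held 7 UMIs in 7 cells. Adra2a, an alpha-2 adrenergic receptor gene, held 17 of its 90 UMIs in the meningeal fibroblast-like cells, at 108 CPM (63.1 to 173) in 8 of 29 cells, and another 17 in 11 striatal neuron-like cells. All 34 of these came from the first run.

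Basal forebrain neuron-like cells, marked by Lhx8, Zic1 and Zic4 and present in the first run alone, had the highest GABA-A receptor level of the 13 named classes. The family stood at 748 CPM (676 to 826) there, against 455 CPM in excitatory neuron-like cells. Among the latter, the Hs3st4 cluster stood at 660 CPM (621 to 701), and the 2 intervals overlap. Gabrb2 stood at 209 CPM (172 to 252) in these 155 basal forebrain neuron-like cells, with 16 of its 111 UMIs in 1 cell. It was at 215 CPM in the Hs3st4 cluster. Gabra4 (33.9 CPM, 18 UMIs) and the nicotinic alpha subunit gene Chrna4 (26.4 CPM, 14 UMIs) lay in 7 and 8 cells. Htr7, a serotonin receptor gene, held 9 of its 17 UMIs there, in 7 cells. These levels rest on few cells and have no second run to set beside them.

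The share of cells with at least 1 UMI was taken after every cell was thinned to 1000 UMIs, since classes differed in depth (median 3717 UMIs in radial glia-like and 4415 in excitatory neuron-like cells). Gria2 was found in 60.3% of excitatory neuron-like, 51.1% of migrating excitatory neuron-like, 26.6% of intermediate progenitor-like and 30% of radial glia-like cells. It was also found in 2 classes of non-neural origin, 11.8% of the 17 microglia-like cells (median 3955 UMIs) and 10.3% of the 29 meningeal fibroblast-like cells (median 4390 UMIs), and shares near these values are read as background. Gria1 was found in 40.3% of Sst and Lhx6 interneuron-like cells and at most 10.9% of cells of any other named class, with 0 in both non-neural classes, which allows up to 17.6% of 17 and 10.3% of 29 cells with a UMI; before thinning, 2 of the 29 meningeal fibroblast-like cells held 1. Grin2b was found in 22.1% of excitatory neuron-like cells and 5.9% of microglia-like cells, and Grik3 in 27.0% of Sp8 interneuron-like cells and 0 of the 17 microglia-like and 29 meningeal fibroblast-like cells. Any GABA-A receptor gene was found in 11.4% of radial glia-like, 33.4% of excitatory neuron-like and 42.6% of basal forebrain neuron-like cells, and in 0 of the microglia-like and 0 of the meningeal fibroblast-like cells, with the same limits of 17.6% and 10.3%, so the thinned shares alone do not set radial glia-like cells apart from the background that these few cells allow. Over all UMIs, the level of the family was 139 CPM (127 to 151) in radial glia-like cells. It was 29.7 CPM (3.60 to 107, on 2 UMIs) in microglia-like and 6.37 CPM (0.161 to 35.5, on 1 UMI) in meningeal fibroblast-like cells, and both intervals lie below the radial glia-like interval.

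The 15 receptor genes with 50 to 199 UMIs include Grik1, Grm2, Gabra5, Gabra3, Adra2c, Adra2a, Htr2c, Chrna4 and Gabrg1, given above. Grin3a was at 19.1 CPM in striatal neuron-like and 1.1 CPM in excitatory neuron-like cells, but 4 of its striatal UMIs lay in a single cell. It was not particular to the striatal class, with 18.8 CPM in basal forebrain neuron-like cells and 30.2 CPM (19 UMIs) in the Sst cluster. Grm4 was at 26.4 CPM in striatal neuron-like, 18.8 CPM in Sp8 interneuron-like and 0.5 CPM in excitatory neuron-like cells. Gabrb1 was at most 13.2 CPM in any named class, and Chrm1, a muscarinic receptor gene, at most 6.3 CPM. The 17 genes with fewer than 50 UMIs were Grm3, Grik4, Chrna3, Chrnb1, Grm7, Chrnb4, Gabrd, Grm8, Grin3b, Chrna7, Htr1a, Htr7, Htr5a, Chrm4, Grin2c, Htr4 and Chrna5. Exons of 17 of the 51 genes overlap an exon of another annotated gene. In 3 cases, Chrnb2 with Adar, Gabra4 with Gabrb1 and Grin3b with Tmem259, the other gene was also in the matrix.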

How the data were processed

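The deposited matrix holds counts (UMIs per gene and cell), whole numbers as the values show. The submitters' processing notes name the build mm10; the aligner is not given in the sources used here. Every gene was present in at least 5 cells, and 0 mitochondrial genes were listed. Per the labels, a SureCell droplet kit was used on 16 samples of 1 group.

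The 51 receptor genes and all lists were chosen with earlier results of these data known. Cells were grouped with Leiden clustering (leidenalg 0.10.2, resolution 1, seed 1) on 30 principal components (scikit-learn 1.9.0) and 15 neighbours. The 2000 variable genes held 0 receptor genes, and partner, cell cycle, ribosomal protein and sex-linked genes were also left out. Clusters were named from 23 marker lists (171 of 185 genes in the matrix). Other tools were Python 3.11.15, NumPy 2.4.6, SciPy 1.17.1 and pandas 2.3.3. Doublets were kept in the main values.

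Cells carry running numbers in place of barcodes, so shared barcodes could not be counted. Ratios compare summed UMIs per class total, with exact conditional binomial 95% intervals, and shares carry Clopper-Pearson intervals in the tables. Depth was 1111 to 17398 UMIs per cell, and intervals and floors (3 counts) cover counting error only. The procedure was tested on simulated data. Genes named in a comparison are the 3 per family with the largest ratio of at least 1.5-fold whose interval leaves out 1, or else the family's deepest gene; of each partner list, the 2 largest ratios in each direction, the text giving the leading ones. Other genes named were chosen after their values were seen. Results of some receptor, partner and cluster marker genes are not reported here. Alternatives were cluster resolutions 0.5 and 2, equal weight per cell, a minimum of 10 UMIs, leaving out the 5% of cells with the highest doublet scores, clusters from a random 50% of the UMIs with values from the rest, each run alone, and no thinning; leaving out each cluster of a class was added later. Positions are from GENCODE M21 on GRCm38.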

Additional observations from a re-analysis of the deposited data

How the results depend on the processing

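Of 92 counts of receptor genes taken over 8 alternative settings, 75 stayed within 1.5 times the main count. Of 77 named ratios of the 6 planned comparisons, 71 kept their direction in every alternative in which they were measured. Not every ratio was measured in every setting, and 570 values were compared in all. The minimum of 10 UMIs uses the same cells and counts, so it cannot change a named ratio. The minimum of 10 UMIs, which tests more genes, gave 7 lower in excitatory neuron-like cells against radial glia-like cells (2 in the main analysis), 2 lower in interneuron-like cells against ventral progenitors (0), 10 higher and 15 lower in interneuron-like against excitatory neuron-like cells (5 and 8), 5 higher and 10 lower in striatal neuron-like cells (0 and 6), 2 higher and 15 lower in the Sp8 class (0 and 9) and 13 higher in Cajal-Retzius-like cells (5). Between excitatory neuron-like and interneuron-like cells, 4 were lower at resolution 2, 2 on a random 50% of UMIs, and 3 lower and 8 higher in the second run. In striatal neuron-like cells 1 was higher at resolution 0.5 and 2 in each run, and in the first run 1 was lower in excitatory neuron-like cells against radial glia-like cells. Shares over all genes are not given for these settings. The counts therefore show only how the number of receptor genes past the threshold moved with the setting, and are not read as a result about receptor genes. The causes were not tested.

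Of the 6 others, 3 had not passed 1.5-fold in striatal neuron-like cells. Among those past it, direction reversed for Gabrb2 (log2 ratio 0.15 on a random 50% of UMIs, 0.10 in the second run) and Glra2 (0.015 and 0.22) in interneuron-like against excitatory neuron-like cells, and for Grik3 in striatal neuron-like cells (0.70 in the second run). With each cluster of a class left out in turn, chosen after the values were seen, 42 of 52 counts stayed within 1.5 times. Without the Sst cluster, 2 were higher and 13 lower in interneuron-like against excitatory neuron-like cells, where Grm5 reversed (-0.71), 3 higher and 3 lower in striatal neuron-like cells, where Glra2 (0.22) and Grm5 (0.26) reversed, and 5 lower in the Sp8 class. Without the Camk4 cluster 3 were higher in Cajal-Retzius-like cells, without the Hs3st4 or the Nkx2-1 cluster 5 were lower in interneuron-like against excitatory neuron-like cells, without the Sp8 class 1 was higher in striatal neuron-like cells, and without the Dlx2 cluster 1 was lower in interneuron-like cells against ventral progenitors. Ratios between single clusters entered none of these counts, and shares over all genes are not given for the counts without a cluster. Without thinning, AMPA receptor genes were found in 65.0% of radial glia-like, 95.6% of excitatory neuron-like and 80.2% of Sst and Lhx6 interneuron-like cells, and GABA-A receptor genes in 32.1%, 72.8% and 49.9%. The comparison of the Sst and Lhx6 class with the Sp8 class gave no value at resolution 0.5 or on a random 50% of UMIs, where no Sp8 class formed. No paired analysis was possible because all cells lie in 1 pooled matrix with no sample names. Depth limits the 17 genes with fewer than 50 UMIs, and 1 pooled sample gives no measure of the spread between animals.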

Other observations

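The 2 unnamed clusters, led by Nts (223 cells) and by Crym (185 cells), carried neuron-like levels of several receptor genes and stood apart in 1 of them. Gabra2 was at 60.7 CPM in the Nts cluster and 77.8 CPM in the Crym cluster, against 30.2 CPM or less in every named class, and made up 61.8% of GABA-A alpha subunit UMIs in the 2 clusters together. It was at 57.1 CPM in their cells of the first run and 86.6 CPM in those of the second. Grik3, in contrast, was at 52.5 and 20.5 CPM there, below the excitatory neuron-like level of 171 CPM, while Glra2 was at 133 and 82.9 CPM and Grin2b at 153 and 162 CPM. Gabra4 was at 16.3 and 29.7 CPM.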
